A study of Mus musculus with 13 samples.

Results

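Solute carriers are membrane proteins that move sugars, amino acids, metals, vitamins and ions across membranes. The 233 genes described here are the solute carrier genes, outside a set of transporters of the brain's barriers, that could be tested in microglia of newborn mice. They were chosen by name: 350 of the 55487 genes in the count table have a symbol made of Slc, a number, a and a number. Of these, 106 did not pass a filter on low counts, 32 of them with no count in the 10 libraries compared and 74 with few counts. Among the 244 that passed, 11 genes (Slc2a1, Slc16a1, Slc7a1, Slc7a5, Slc38a5, Slc22a8, Slc1a4, Slc19a3, Slc38a3, Slc17a6 and Slc4a1) were set aside, most of them transporters of the blood-brain barrier. A further such gene, Slc17a7, is among the 106. The 233 members stand among 15511 genes tested in all. Over the 10 libraries the members just inside the filter, Slc32a1, Slc13a2 and Slc5a11, had 94, 95 and 95 counts in all, and the genes just outside, Slc25a31, Slc17a8 and Slc24a1, had 272, 141 and 119 counts. The filter weighs how many libraries hold counts as well as their sum. The pattern also takes 4 genes that are not themselves carriers, Slc9a3r1, Slc9a3r2, Slc4a1ap and Slc7a6os.

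Microglia, the resident macrophages of the brain, were collected at postnatal day 4 (days 3 to 5 in the series text) from the whole brain of pups whose dams had undergone maternal immune activation (MIA, 5 libraries) and of control pups (CON, 5 libraries). The brains were not perfused, the meninges were removed, and the cells were freed with papain at body temperature and captured with magnetic beads against CD11b, a surface protein of myeloid cells. The sources used here do not give the immune-activating agent, the strain, the sex or the litter. They do not say whether each library came from a separate animal either, so the p-values measure the spread between these libraries. A further 3 libraries (MIA 6, MIA 7 and CON 6) have titles that mark them as excluded and entered no main comparison. The levels of CON 6 were on the MIA side of the CON median for 14 of the 15 genes called higher and 16 of the 16 called lower below. It reached the range of the MIA libraries for 8 of the 15 and 7 of the 16, lay between the groups for 4 and 7, and lay within the range of the CON libraries for 3 and 2. Counts with the 3 libraries are given beside the main ones.

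Many solute carriers sit in the plasma membrane and set what a cell takes up, while others sit in mitochondria, in the Golgi apparatus or in endosomes and lysosomes, where they carry breakdown products back to the cytosol. Macrophages depend on the lysosomal ones because they digest what they engulf. Several amino acid exchangers of the Slc7 family, called light chains, reach the cell surface with the heavy chain encoded by Slc3a2. Zinc importers of the Slc39 family and zinc exporters of the Slc30 family act in opposite directions on cytosolic zinc.

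The MIA libraries held 25719147 to 29823415 counts and the CON libraries 27900106 to 35593541. Marker genes of the labelled cell type were present in every library, but 10 of 10 microglial markers were lower in MIA, with sums of 15466 to 19894.5 CPM in MIA and 23488 to 30030 CPM in CON. CPM are counts per 1e+06 counts of the library, scaled by edgeR's TMM factors. All 10 endothelial markers were higher in MIA, with sums of 2628 to 4425 CPM in MIA and 872 to 1451 CPM in CON, as were 6 of 10 neuronal markers, with sums of 117 to 170 CPM in MIA and 61.6 to 81.6 CPM in CON. Fewer cells of a type and less RNA per cell cannot be told apart in such bulk libraries, and the part of either in the values below was not tested. CON 1 and CON 2 stood apart from the other libraries. Genes of tissue dissociation and immediate early response summed to 5998 to 7041 CPM in MIA, to 2437 and 2239 CPM in CON 1 and CON 2, and to 8508 to 9764 CPM in CON 3 to CON 5. Erythroid markers summed to 1738 to 3042 CPM in MIA, to 61.3 and 80.1 CPM in CON 1 and CON 2, and to 1160 to 2191 CPM in CON 3 to CON 5.

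In MIA, 15 of the 233 members rose and 16 fell, by edgeR's quasi-likelihood test with Benjamini-Hochberg adjustment over all genes and a threshold of 0.05. That is 13.3% of the members, against 10.3% of all genes tested. By direction, 6.44% of members were higher, against 5.75% of all genes, and 6.87% were lower, against 4.58% of all genes. The 5 MIA libraries lay all above the 5 CON libraries in 13 members and all below them in 18, where the background was 5.59% and 4.36% of genes. Scaling by total counts alone moved the split to 18 higher and 13 lower members and, over all genes, to 1036 higher and 496 lower, against 892 and 710 with TMM. The members' median log2 fold change was 0.02, against -0.01 over all genes, and 121 members had a positive and 112 a negative value. Without CON 1 and CON 2, 20 members were higher and 18 lower, and 13 of the 15 higher and 13 of the 16 lower members were among them. Calls lost there included those of Slc1a1 (adjusted p = 0.112), Slc3a2 (0.0781), Slc25a13 (0.118) and Slc9a9 (0.054). With the 3 libraries titled as excluded added to their groups, 5 members were higher (Slc16a4, Slc25a24, Slc38a2, Slc39a10 and Slc44a5) and 7 lower (Slc2a5, Slc7a7, Slc11a1, Slc12a9, Slc29a3, Slc37a2 and Slc38a7). These 12 were among the 31, and the other 19 calls were lost in that fit. By level, 4 of the 29 members with a mean of at least 100 CPM were higher and 7 lower. Between 10 and 100 CPM these were 7 and 8 of 110, and under 10 CPM 4 and 1 of 94. The shares of all genes at the same levels were not taken, so these counts cannot be read as a trait of the members. The 202 members that did not pass had log2 fold changes of -1.03 to 2.67. The called rises were 1.32-fold to 4.03-fold, whereas the called falls left 0.55 to 0.81 of the CON level. The largest fold change of any member belonged to a gene that did not pass, Slc45a3, a sugar transporter family member at 1.03 ± 0.586 CPM in MIA and 0.157 ± 0.285 CPM in CON (SD, n = 5 each), with a log2 fold change of 2.67 ± 1.01 (SE) and an adjusted p of 0.123.

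**Figure D1:**
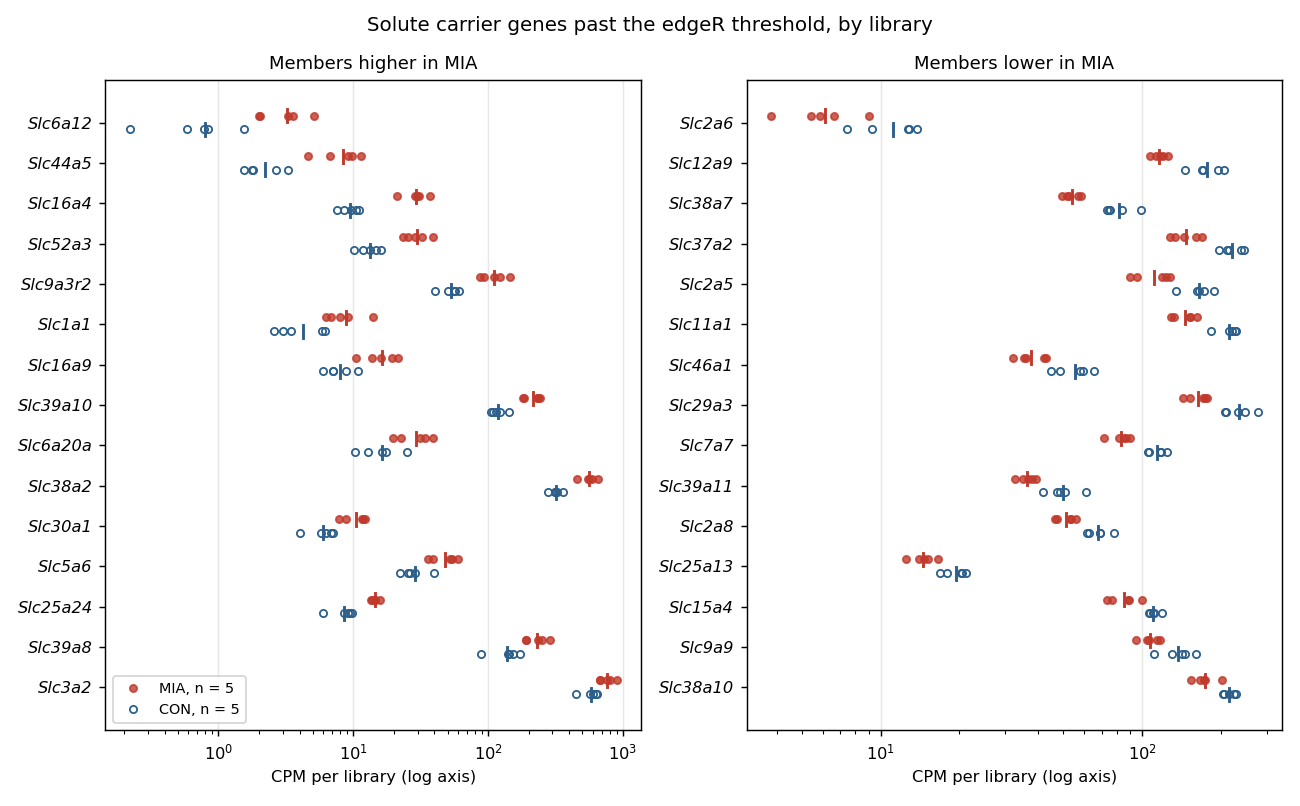
Levels of 30 of the 31 solute carrier genes past the threshold, in CPM per library on a log axis, with filled points for the 5 MIA libraries, open points for the 5 CON libraries and a bar at each group's mean. The groups do not overlap in 12 of the 15 higher and 13 of the 15 lower members drawn.

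Sorted by what they carry, the members were called as follows, where 5.75% of all genes tested were higher and 4.58% lower. Sugar, polyol and sugar phosphate carriers had 4 lower and 0 higher of 18, and carriers of sodium, potassium, chloride, calcium and protons had 3 lower and 0 higher of 20. Carboxylate carriers had 2 higher and 0 lower of 14, and carriers of neurotransmitters, taurine and creatine had 1 higher and 0 lower of 11. Amino acid and peptide carriers were called in both directions, 4 higher and 4 lower of 34, as were metal and heme carriers, 3 and 2 of 29, carriers of vitamins, choline, nucleosides and urea, 3 and 2 of 22, and mitochondrial carriers, 1 and 1 of 41. None of the 16 carriers of bicarbonate, phosphate and sulfate, the 18 of fatty acids, bile acids and organic ions, or the 6 of nucleotide sugars and acetyl-CoA passed edgeR's test. With all 13 libraries 2 of the 4 sugar calls were kept, 1 of the 3 ion calls, 1 of the 2 carboxylate calls and 0 of the 1 neurotransmitter call. Of the amino acid calls 1 higher and 2 lower were kept in that fit, of the metal calls 1 and 1, of the vitamin calls 1 and 1, and of the mitochondrial calls 1 and 0. Class medians of the log2 fold change lay between -0.16 and 0.24. The class sizes are small, and no difference between classes was tested.

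**Figure D2:**
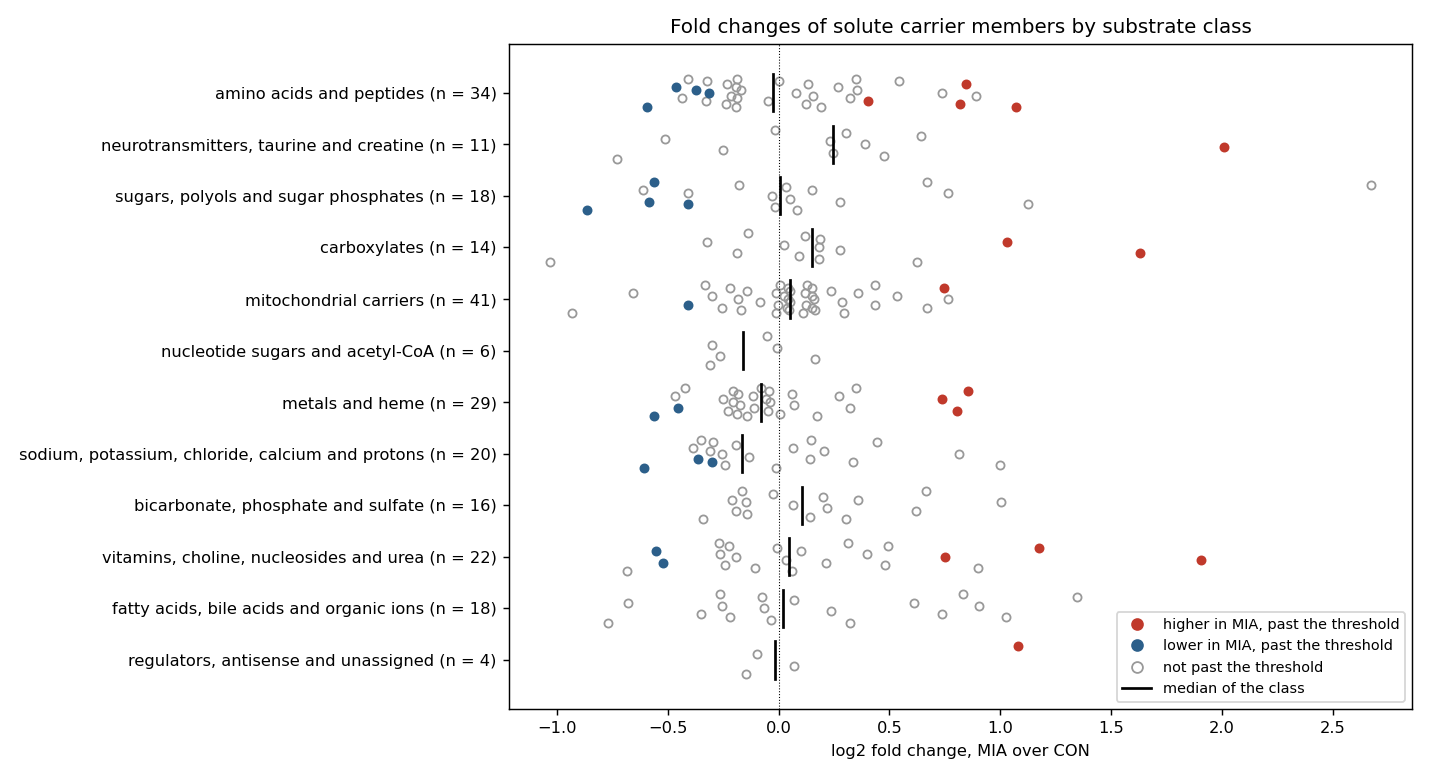
Log2 fold change, MIA over CON, of each of the 233 members, grouped by substrate class, with the class median as a black bar. Filled red points are the 15 members higher in MIA, filled blue points the 16 lower, and open points the 202 that did not pass.

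Among amino acid carriers the most strongly counted risers were the sodium-coupled neutral amino acid importer Slc38a2 and the heavy chain Slc3a2. Slc38a2 had 548, 455, 656, 556 and 588 CPM in MIA 1 to 5, against 312, 279, 326, 315 and 357 CPM in CON 1 to 5. Every MIA library lay above every CON library, and the log2 fold change was 0.82 ± 0.10 (SE; adjusted p = 0.00026). Slc3a2 had 676, 679, 900, 760 and 800 CPM in MIA, against 447, 570, 631, 601 and 640 CPM in CON. The groups did not overlap, and the change was smaller, at 0.40 ± 0.11 with an adjusted p of 0.0329. It missed the threshold without CON 2 (0.0729), CON 4 (0.0575), MIA 3 (0.0856), MIA 4 (0.0738) or MIA 5 (0.0951).

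Over all genes tested 5.75% were higher and 4.58% lower. Of the 9 members with an Slc7 symbol, among them Slc7a6os, which is not a carrier, 0 were higher and 1 was lower. Slc7a5, a light chain set aside at the start, is not among them and was higher in MIA (log2 fold change 1.48 ± 0.18, SE; adjusted p = 0.000417). Slc7a7, a light chain that exchanges basic and neutral amino acids, was lower, with 89.5, 86.8, 85.6, 71.8 and 81.5 CPM in MIA and 106, 125, 118, 107 and 118 CPM in CON. The groups did not overlap, and the log2 fold change was -0.46 ± 0.08 (adjusted p = 0.00217). Slc7a8, an exchanger of neutral amino acids and the most strongly counted light chain among the members, had 459 ± 40.2 CPM in MIA and 524 ± 61.4 CPM in CON (SD, n = 5 each) and did not pass (adjusted p = 0.236). Slc7a6 had 46.8 ± 2.24 CPM in MIA and 46.8 ± 2.95 CPM in CON. Slc7a11, the cystine and glutamate exchanger, had 9.04 ± 0.411 CPM in MIA and 8.25 ± 4.76 CPM in CON (adjusted p = 0.866).

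The other rises in this class were in genes with lower counts. The glutamate and cysteine importer Slc1a1 had 6.85, 6.27, 9.2, 14.1 and 7.93 CPM in MIA and 3, 2.58, 3.43, 5.86 and 6.21 CPM in CON. The lowest MIA library, MIA 2, lay just above the highest CON library, CON 5. Its log2 fold change was 1.07 ± 0.30 with an adjusted p of 0.0382, and it missed the threshold when CON 1 (0.05), CON 2 (0.0889), CON 3 (0.0899), MIA 3 (0.076), MIA 4 (0.123) or MIA 5 (0.0707) was left out. The proline carrier Slc6a20a had 39.4, 22.6, 19.8, 31.2 and 34.2 CPM in MIA and 24.8, 12.9, 10.2, 17.5 and 16.3 CPM in CON. The groups overlapped, and its change of 0.85 ± 0.24 (adjusted p = 0.0469) was lost without CON 2 (0.116), CON 3 (0.0877), CON 4 (0.0815), CON 5 (0.0901), MIA 1 (0.105), MIA 4 (0.103) or MIA 5 (0.11). Reads of Slc6a20a may be shared with its near copy Slc6a20b, so its value is uncertain.

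Beside Slc7a7, the falls in this class were in Slc38a7, Slc15a4 and Slc38a10. Slc38a7, a glutamine exporter of lysosomes, had 51.8, 56.9, 58.5, 52.8 and 49.5 CPM in MIA and 74.8, 98.8, 75.7, 73.6 and 83.7 CPM in CON. The groups stood clear of each other, with a log2 fold change of -0.59 ± 0.09 (adjusted p = 0.00142). Slc15a4, a histidine and peptide carrier of endosomes and lysosomes, had 100, 88.9, 88, 73.6 and 76.6 CPM in MIA and 106, 111, 110, 107 and 119 CPM in CON. Its change of -0.37 ± 0.09 (adjusted p = 0.0143) missed the threshold without MIA 5 (0.0576). Slc38a10, of the same family as Slc38a2, averaged 174 ± 18.1 CPM in MIA and 216 ± 10.7 CPM in CON (SD, n = 5 each), a change of -0.31 ± 0.08 with an adjusted p of 0.022, which was lost when CON 3 (0.0567), CON 5 (0.0549), MIA 1 (0.0527), MIA 4 (0.0643) or MIA 5 (0.0668) was left out.

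A list of 14 members whose products sit in endosomes or lysosomes was drawn up after their values had been seen, so it describes the pattern and does not test it. In that list 7 members were lower and 0 higher in MIA, where 4.58% of all genes tested were lower and 5.75% higher. The median log2 fold change was -0.31, and all 14 values were negative. The list is not complete, and members left out of it could change these counts. Of the 219 members outside the list, 121 had a positive and 98 a negative value. Members left out that may also sit there include Slc11a2, at 6.26 CPM per kb of exon in MIA and 6.00 in CON, and Slc31a2, at 19.2 and 19.1. Neither was lower in MIA, so the uniform sign depends on which members were listed. Of the 7 calls, 6 held without CON 1 and CON 2 and 3 held with all 13 libraries. Outside it, 15 of 219 members were higher and 9 lower, and the median was 0.05. The lower members were Slc2a6, Slc2a8, Slc9a9, Slc11a1, Slc15a4, Slc29a3 and Slc38a7. The others included Slc15a3, Slc17a5, Slc36a1, Slc38a9, Slc46a3 and Slc48a1, with log2 fold changes of -0.17 to -0.25. Slc46a3, which is counted most among them, had 109 ± 11.9 CPM in MIA and 129 ± 10.8 CPM in CON (adjusted p = 0.109). These libraries are the ones in which the 10 microglial markers were lower as well, with the sums given above, and that part was not tested.

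Slc11a1, the iron and manganese pump that macrophages put into phagosomes, was among the clearest of the falls. It had 153, 162, 152, 133 and 130 CPM in MIA, against 221, 229, 216, 184 and 227 CPM in CON. No library of one group reached the other group, and the log2 fold change was -0.56 ± 0.09 (adjusted p = 0.00118). Slc29a3, which lets nucleosides out of lysosomes, had 177, 172, 174, 144 and 152 CPM in MIA and 247, 278, 210, 208 and 233 CPM in CON. Its change was -0.52 ± 0.09 (adjusted p = 0.00334), again with no overlap. Slc9a9, a sodium and proton exchanger of endosomes, averaged 107 ± 8.69 CPM in MIA and 138 ± 18.6 CPM in CON (SD, n = 5 each). It overlapped between groups, and its change of -0.36 ± 0.10 (adjusted p = 0.0302) was lost when CON 2 (0.0776), CON 3 (0.0685), CON 5 (0.072), MIA 1 (0.0624), MIA 3 (0.0775) or MIA 5 (0.0815) was left out.

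The promoter windows of lower members were searched for the word CACGTG, which stands in the core of the sites through which MiT family factors control many lysosomal genes. The word reads the same on both strands. RefSeq windows on GRCm38.p6, running from 250 bases before to 50 bases after each start, exist for 179 of the 233 members, in 238 windows. CACGTG occurred in 31 of the 238 member windows. For comparison, it occurred in 9.43% of the windows of all genes tested and in 7.15% of all 32851 windows. Of the 15 lower members with a window 4 held it, Slc12a9, Slc38a7, Slc25a13 and Slc39a11. Of the 14 higher members with a window 1 did, Slc39a8, in the window of its second start. Among all genes tested, 1294 of the 11440 with a window held it. Of the lower members of the endosome and lysosome list, only Slc38a7 did. The windows of a lower chloride cotransporter family member, a lower lysosomal carrier and the higher zinc importer are shown, with the word in capitals. They lie at chr5:137333533-137333832 on the minus strand for Slc12a9, at chr8:95853442-95853741 on the minus strand for Slc38a7 and at chr3:135825407-135825706 on the plus strand for Slc39a8, and each is printed in the direction of transcription.
Slc12a9: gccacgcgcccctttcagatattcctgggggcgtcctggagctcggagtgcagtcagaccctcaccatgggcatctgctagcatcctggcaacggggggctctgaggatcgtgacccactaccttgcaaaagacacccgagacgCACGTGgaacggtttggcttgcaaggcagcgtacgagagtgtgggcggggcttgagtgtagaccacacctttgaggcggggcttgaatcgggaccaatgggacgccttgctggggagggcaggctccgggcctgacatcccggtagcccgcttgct
Slc38a7: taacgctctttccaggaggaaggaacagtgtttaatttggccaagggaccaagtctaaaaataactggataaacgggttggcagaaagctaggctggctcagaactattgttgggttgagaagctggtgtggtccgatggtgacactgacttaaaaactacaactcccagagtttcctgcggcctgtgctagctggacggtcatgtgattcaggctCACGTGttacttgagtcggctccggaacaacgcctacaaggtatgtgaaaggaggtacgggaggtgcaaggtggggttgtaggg
Slc39a8: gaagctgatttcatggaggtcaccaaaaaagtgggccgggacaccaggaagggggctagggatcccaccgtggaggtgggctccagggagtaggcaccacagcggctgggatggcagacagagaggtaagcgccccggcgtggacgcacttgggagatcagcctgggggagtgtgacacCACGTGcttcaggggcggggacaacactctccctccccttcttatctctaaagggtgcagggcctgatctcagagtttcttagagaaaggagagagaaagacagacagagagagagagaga
The word begins 106 bases before the start in Slc12a9, 34 bases before it in Slc38a7 and 71 bases before it in Slc39a8. A match is a run of letters and says nothing of a factor's binding in these cells. On either strand GAGGAAGT, a word bound by the myeloid factor PU.1, occurred in none of the windows of the called members. Its share was 2.10% of the 238 member windows, 3.08% of the windows of all genes tested and 3.20% of all windows. CCGGAAGT, an ETS factor word that shares the letters GGAAGT with it, occurred in 1 of the 20 windows of lower members, in Slc39a11. It occurred in 0 of the 22 windows of higher members. Its share was 2.52% of the 238 member windows, 7.19% of the windows of all genes tested and 3.89% of all windows. With 20 and 22 windows, an absence among the called members cannot be read as a trait of them.

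In the sugar class, 3 of the 9 Slc2 transporters and 1 sugar phosphate carrier fell, where 4.58% of all genes tested were lower. Slc2a5, the fructose transporter that marks microglia, had 127, 124, 120, 95.9 and 90.3 CPM in MIA and 164, 188, 163, 135 and 172 CPM in CON. The MIA libraries all lay below the CON libraries, with a log2 fold change of -0.56 ± 0.11 (adjusted p = 0.00632). Slc37a2, a sugar phosphate carrier family member of macrophages, had 161, 170, 145, 128 and 133 CPM in MIA and 197, 244, 215, 211 and 239 CPM in CON, also without overlap (-0.59 ± 0.09, adjusted p = 0.0016). The intracellular glucose transporter Slc2a8 averaged 51.2 ± 4.19 CPM in MIA and 68 ± 6.56 CPM in CON (SD, n = 5 each), a change of -0.41 ± 0.09 with an adjusted p of 0.00926. The lysosomal Slc2a6 had 5.86, 5.42, 9.03, 6.64 and 3.81 CPM in MIA and 7.44, 9.23, 13.7, 12.7 and 12.8 CPM in CON. MIA 3 lay above CON 1, and its change of -0.86 ± 0.24 (adjusted p = 0.0356) was lost without CON 3 (0.0909), CON 4 (0.0821), CON 5 (0.081), MIA 1 (0.0746), MIA 2 (0.0766), MIA 4 (0.0724) or MIA 5 (0.0904). Slc2a3, the glucose transporter of neurons, had 8.86 ± 0.762 CPM in MIA and 9.04 ± 1.92 CPM in CON (adjusted p = 0.947).

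Metal carriers went in both directions within a single family. Of the 13 Slc39 importers tested, 2 were higher and 1 lower, and of the 7 Slc30 exporters 1 was higher. Over all genes tested 5.75% were higher and 4.58% lower, and so few calls cannot be read as a trait of either family. Slc39a10, a zinc importer of the plasma membrane, had 183, 185, 241, 236 and 230 CPM in MIA and 104, 109, 114, 123 and 142 CPM in CON. The groups were well apart, with a log2 fold change of 0.86 ± 0.11 (adjusted p = 0.000385). Slc39a8, an importer of zinc and manganese, had 192, 192, 286, 235 and 252 CPM in MIA and 87.9, 171, 141, 143 and 152 CPM in CON, where CON 1 was the low library. Its change was 0.74 ± 0.17 (adjusted p = 0.0142). The zinc exporter Slc30a1 averaged 10.5 ± 2 CPM in MIA and 6 ± 1.23 CPM in CON (SD, n = 5 each), a change of 0.80 ± 0.20 (adjusted p = 0.0195) that was lost without MIA 3 (0.0529), MIA 4 (0.0596) or MIA 5 (0.0573). Slc39a11, a zinc carrier of intracellular membranes, averaged 36.3 ± 2.5 CPM in MIA and 49.7 ± 7.09 CPM in CON, a change of -0.45 ± 0.10 (adjusted p = 0.0126).

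Other strongly counted metal carriers did not pass. Slc40a1, the iron exporter ferroportin, had 589 ± 41.3 CPM in MIA and 487 ± 89.4 CPM in CON (SD, n = 5 each; adjusted p = 0.168). It passed as higher without CON 2 (0.0394) and without both CON 1 and CON 2 (0.0144). The copper importer Slc31a1 had 256 ± 24.7 CPM in MIA and 205 ± 35 CPM in CON (adjusted p = 0.107), and passed without CON 1 (0.0325). The zinc importers Slc39a1 and Slc39a7 had 179 ± 9.49 and 158 ± 5.35 CPM in MIA, against 184 ± 15.2 and 171 ± 4.81 CPM in CON (adjusted p = 0.811 and 0.276).

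**Figure D3:**
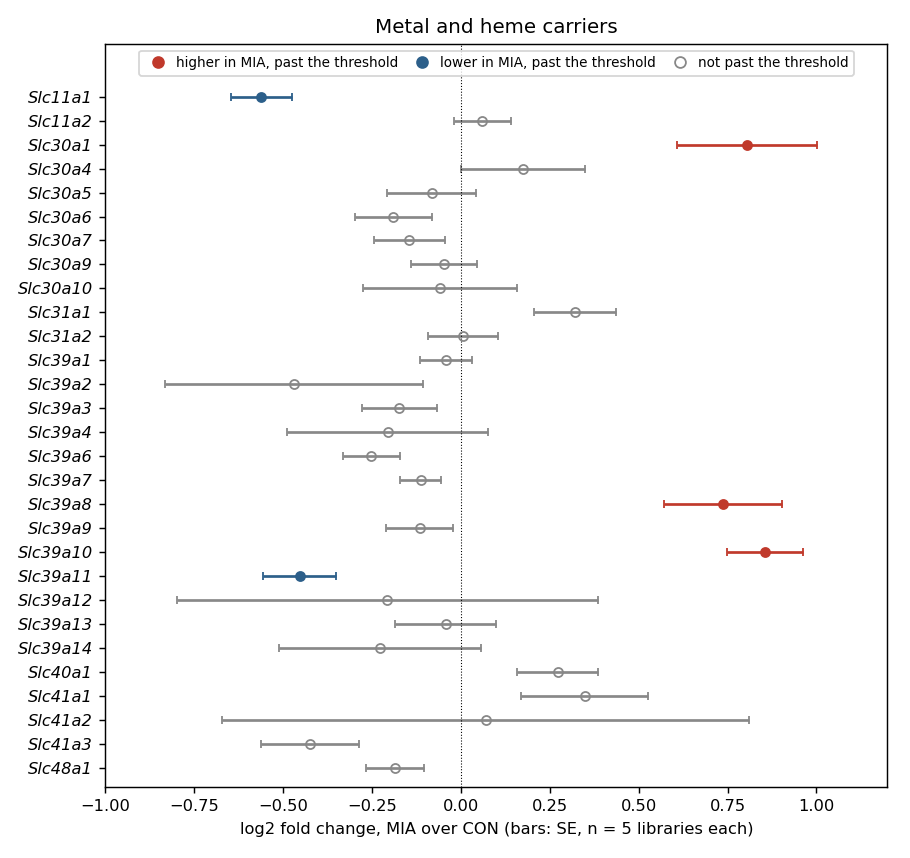
Log2 fold changes, MIA over CON, of the 29 metal and heme carriers, with bars of 1 SE (5 libraries per group). Slc39a10, Slc39a8 and Slc30a1 lie to the right of 0 and Slc11a1 and Slc39a11 to the left of it, past the threshold. The other 24 carriers are drawn in grey.

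Among vitamin, choline and nucleoside carriers the largest change was that of Slc44a5, a member of the choline transporter-like family. It had 4.63, 9.17, 11.5, 9.71 and 6.7 CPM in MIA and 2.69, 1.78, 3.26, 1.82 and 1.54 CPM in CON. All MIA libraries were above all CON libraries (log2 fold change 1.91 ± 0.30, adjusted p = 0.00134). The riboflavin importer Slc52a3 had 25.5, 23.4, 39.1, 28.6 and 32.6 CPM in MIA and 10.1, 11.9, 13.2, 16.1 and 14.8 CPM in CON, also without overlap (1.17 ± 0.16, adjusted p = 0.000659). The biotin and pantothenate importer Slc5a6 averaged 48.1 ± 10 CPM in MIA and 28.5 ± 6.6 CPM in CON (SD, n = 5 each), with overlapping groups (0.75 ± 0.17, adjusted p = 0.0137). Slc46a1, the proton-coupled folate importer, went the other way, with 42.2, 42.9, 35.2, 32.1 and 35.9 CPM in MIA and 65.7, 59.2, 57.8, 44.8 and 48.7 CPM in CON (-0.55 ± 0.12, adjusted p = 0.00991). The nucleoside carrier Slc29a1 had 235 ± 36.2 CPM in MIA and 236 ± 27.5 CPM in CON (adjusted p = 0.984), and the ascorbate importer Slc23a2 had 202 ± 15.4 CPM in MIA and 242 ± 24.5 CPM in CON (adjusted p = 0.0682), passing without CON 3 (0.0224).

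Carboxylate carriers held the rise with the smallest adjusted p of all members. Slc16a4, of the monocarboxylate transporter family, had 28.5, 21.2, 36.9, 29.6 and 30.5 CPM in MIA, against 7.61, 8.58, 11, 10.6 and 9.65 CPM in CON. The groups were far from overlapping, and the log2 fold change was 1.63 ± 0.16 (adjusted p = 9.75e-05). Slc16a9, of the same family, had 16.1, 13.8, 10.5, 19.3 and 21.6 CPM in MIA and 10.8, 7.05, 5.99, 7.04 and 8.86 CPM in CON, with MIA 3 just under CON 1 (1.03 ± 0.21, adjusted p = 0.00775). Slc16a3, the lactate exporter of glycolytic cells, had 54.3 ± 7.6 CPM in MIA and 62 ± 27.4 CPM in CON (SD, n = 5 each; adjusted p = 0.794). With both CON 1 and CON 2 left out it passed as lower (log2 fold change -0.52, adjusted p = 0.0282). Slc16a6 had 85.8 ± 9.09 CPM in MIA and 107 ± 14.3 CPM in CON (adjusted p = 0.068), and passed without CON 1 (0.00457) or MIA 3 (0.04).

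The carrier of the neurotransmitter class that passed was Slc6a12, which moves betaine and GABA. It had 5.13, 3.29, 2.04, 1.99 and 3.59 CPM in MIA and 1.55, 0.836, 0.582, 0.789 and 0.221 CPM in CON. Though low, the groups did not overlap, and its log2 fold change of 2.01 ± 0.47 (adjusted p = 0.0157) was the largest among the called members. Slc6a6, the taurine importer, had 499 ± 72 CPM in MIA and 421 ± 19.7 CPM in CON (SD, n = 5 each; adjusted p = 0.123). Slc9a3r2, a scaffold protein that binds carriers and does not itself transport, was higher, with 93.3, 86.4, 145, 110 and 122 CPM in MIA and 50.1, 40.1, 60.6, 56.2 and 56.5 CPM in CON (1.08 ± 0.15, adjusted p = 0.000651). Its relative Slc9a3r1 had 52.2 ± 3.32 CPM in MIA and 57.8 ± 8.59 CPM in CON. The higher members of these classes rose in the same libraries in which the 10 endothelial markers were higher, with the sums given above. That part was not tested. In the same fit, 9 of the 11 genes set aside were higher and 0 lower, where 5.75% and 4.58% of all genes tested were. The median log2 fold change of the 11 was 1.40.

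Carriers of salt and protons fell where they passed. Slc12a9, of the cation and chloride cotransporter family, had 113, 125, 120, 107 and 117 CPM in MIA and 205, 195, 170, 146 and 170 CPM in CON. The groups were well separated (-0.61 ± 0.09, adjusted p = 0.00109). The bicarbonate importer Slc4a7 had 37.2 ± 5.02 CPM in MIA and 47.2 ± 3.48 CPM in CON (SD, n = 5 each), without overlap and narrowly short of the threshold (adjusted p = 0.0549). Slc12a7, a potassium and chloride exporter, had 76.7 ± 10.5 CPM in MIA and 69.4 ± 8.82 CPM in CON (SD, n = 5 each; adjusted p = 0.487).

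Of the 41 mitochondrial carriers, Slc25a24 rose and Slc25a13 fell. Slc25a24, a calcium-regulated exchanger of ATP-magnesium and phosphate, had 14.4, 13.8, 14.6, 13.5 and 15.7 CPM in MIA and 5.93, 9.42, 8.61, 9.16 and 9.87 CPM in CON (0.74 ± 0.15, adjusted p = 0.0064). Slc25a13, an aspartate and glutamate exchanger, averaged 14.6 ± 1.51 CPM in MIA and 19.3 ± 1.86 CPM in CON (SD, n = 5 each; -0.41 ± 0.12, adjusted p = 0.0402). That call was lost without CON 1 (0.053), CON 2 (0.0962), CON 3 (0.0551), CON 4 (0.0871), MIA 1 (0.0832), MIA 2 (0.0665), MIA 4 (0.0751) or MIA 5 (0.116). Its close relative Slc25a12 had 57 ± 4.24 CPM in MIA and 51.3 ± 9.99 CPM in CON (adjusted p = 0.511). The phosphate carrier Slc25a3 had 403 ± 19.2 CPM in MIA and 397 ± 27.5 CPM in CON, and the ADP/ATP exchanger Slc25a4 had 229 ± 4.94 CPM in MIA and 222 ± 9.8 CPM in CON. Slc25a5, another ADP/ATP exchanger, had 628 ± 23.4 CPM in MIA and 714 ± 53.3 CPM in CON (adjusted p = 0.123, passing without CON 1 at 0.0212). Its reads may be shared with processed copies and with Slc25a4. Per kb of exon, and so comparable between genes, it ranked first in both groups, with a mean level of 382 CPM per kb in MIA and 434 CPM per kb in CON, ahead of Slc3a2 with 216 CPM per kb in MIA and 164 in CON. Slc7a8 had 91.7 CPM per kb in MIA and 105 in CON, and Slc25a4 had 97.3 in MIA and 94.2 in CON, and the order of these means differed between the groups.

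The classes with no call are described by some of their most counted members, to which Slc4a7 also belongs. Slc35a4, of the nucleotide sugar family, had 157 ± 8.39 CPM in MIA and 163 ± 16 CPM in CON (SD, n = 5 each; adjusted p = 0.757). Slc35a5, of the same family, had 49.2 ± 3.85 CPM in MIA and 60.9 ± 7.3 CPM in CON (adjusted p = 0.0595), and passed without CON 3 (0.0257) or MIA 2 (0.0459). The bicarbonate and chloride exchanger Slc4a2 had 67.1 ± 25.2 CPM in MIA and 74 ± 32.5 CPM in CON (adjusted p = 0.867). The fatty acid importer Slc27a1 had 60.6 ± 9.55 CPM in MIA and 77.3 ± 25.5 CPM in CON (adjusted p = 0.33).

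A set of 11 members with a mean of at least 10 CPM varied at least 5-fold among the CON libraries. None of these members passed the test, but a spread this wide within a group itself makes a call unlikely. They included Slc4a5, Slc6a15, Slc29a4, Slc2a12, Slc7a10, Slc25a18, Slc13a4, Slc4a10 and Slc39a12. CON 1 was the highest CON library in all 11. Slc6a15, a neutral amino acid importer, had 87.5, 25.8, 6.59, 98.6 and 67.2 CPM in MIA and 157, 3.96, 2.71, 37.4 and 23.7 CPM in CON. Slc4a5, a sodium bicarbonate cotransporter of the choroid plexus, had 13.4, 5.45, 3.39, 41.1 and 17.3 CPM in MIA and 36.9, 0.58, 0.61, 19.3 and 12.7 CPM in CON. The highest CON level was 63.4 times the lowest in Slc4a5 and 58.0 times the lowest in Slc6a15. MIA 3 was the lowest MIA library in 10 of the 11 members and MIA 4 the highest in 7. Among the CON libraries CON 3 was the lowest in 6 members, CON 2 in 3 and CON 5 in 2. The summed choroid plexus markers ran from 755 CPM in MIA 3 to 12886 CPM in MIA 4 among the MIA libraries, and from 27.5 CPM in CON 3 to 15831 CPM in CON 1 among the CON libraries. The summed astrocyte and radial glia markers ran from 522 CPM in MIA 3 to 872 CPM in MIA 5, and from 342 CPM in CON 5 to 834 CPM in CON 1. Not all members followed the choroid plexus sums: Slc25a18 was lowest in MIA 4 (5.70 CPM) and in CON 5 (2.81 CPM). The part of choroid plexus cells or astrocytes in these values was not tested.

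**Figure D4:**
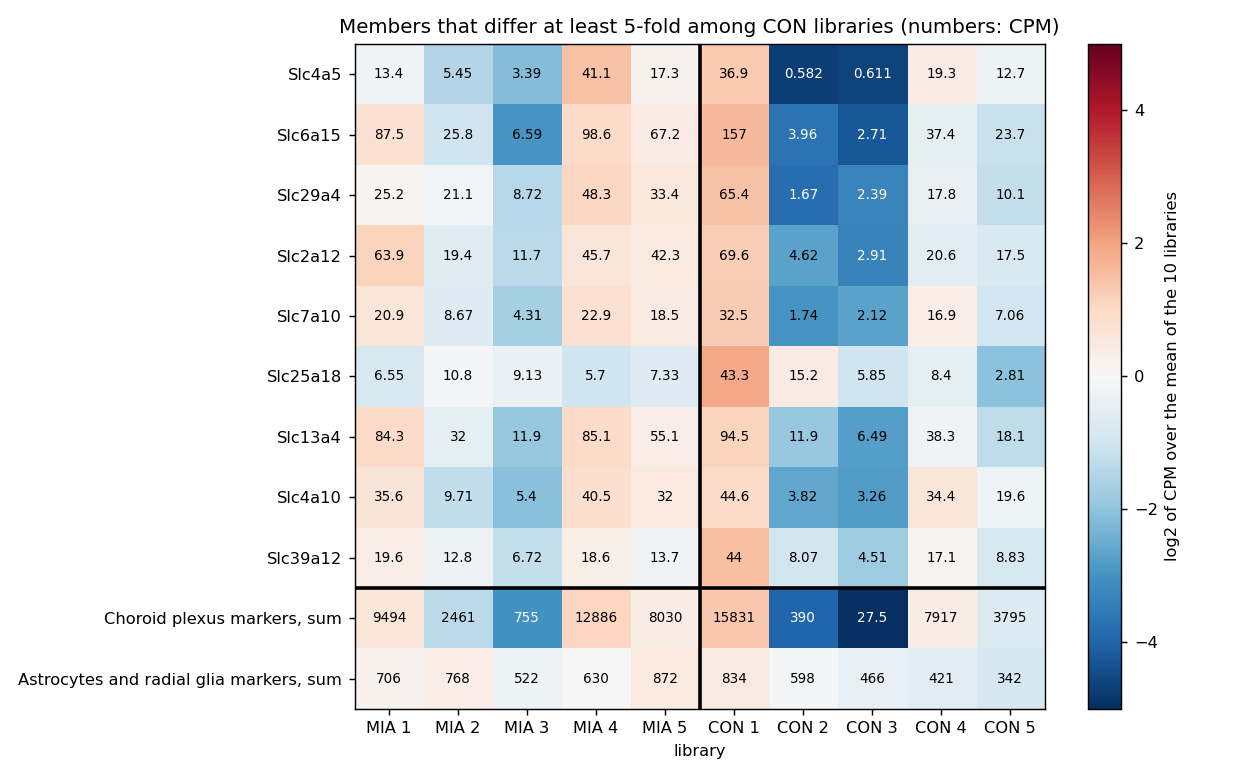
Levels of 9 of the 11 members that vary widely between CON libraries, with the summed choroid plexus and astrocyte markers below the line. Rows are genes, columns are the 5 MIA and 5 CON libraries, numbers are CPM, and the color gives log2 of CPM over the mean of the 10 libraries, with the lowest values drawn in the darkest blue. CON 1 is the highest CON library in all 9 genes.

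Solute carriers under other symbols, together with the carrier chaperones Bsg and Emb, were read from the same fit. Of the 42 genes listed, 36 were tested, and 7 were higher and 6 lower in MIA, where 5.75% and 4.58% of all genes were, with a median log2 fold change of -0.03. The higher ones were Mfsd2a, a lipid importer, with a mean of 290 CPM in MIA and 94.2 CPM in CON (1.62 ± 0.20), Flvcr2 (1.51), Slc35f2 (1.44), Slco2a1 (1.39), Slco1c1 (1.18), Slco1a4 (1.09) and Bsg (0.86 ± 0.13), the chaperone of monocarboxylate carriers. Bsg averaged 1340 ± 254 CPM in MIA and 740 ± 103 CPM in CON (SD, n = 5 each). The lower ones were Slc35f6, Slc35c1, Mfsd12, Slc35c2, Spns1 and Slc35b2, with log2 fold changes of -0.29 to -0.62.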

How the data were processed

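The deposited values are expected counts by gene, which the authors did not scale between libraries. RSEM, STAR and DESeq2 appear in the submitters' processing notes, with no version and no role. Build, annotation and batch: not given in the sources used here. Per the labels' protocols, libraries were made from poly(A)-primed cDNA (a modified Smart-Seq2 method) and tagmented without strand marks, so reads from the overlap of genes such as Slc7a6 and Slc7a6os cannot be assigned by strand. The expected counts were rounded to whole numbers; 20.6% of nonzero values were not whole. Symbols came from the Ensembl gene ID (55141 of 55487 matched with or without version).

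Genes were filtered with filterByExpr and tested in R 4.3.3 with edgeR 4.0.16 (scaling by TMM; a robust quasi-likelihood fit on group alone), with Benjamini-Hochberg adjustment over 15511 genes. SE is the absolute log2 fold change over the square root of F. Levels between genes use CPM per kb of union exon length (GENCODE M21). A count of 3 is 0.0843 to 0.118 CPM and, like every limit of counting, covers counting error only. Promoters came from RefSeq GRCm38.p6. The pipeline was tested on simulated counts.

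Members, substrate classes and lists were chosen with earlier results of these data known, and the endosome and lysosome list after the values were seen. Named genes were the 12 largest called rises and falls with at least 4 of 5 MIA libraries on the side of the CON median, the 3 most counted members of each class, and called members of the list under other symbols. The other called members given, and those named beside them, were added after their values were seen. Alternatives were other scalings, filters, DESeq2 1.42.0, a replicate block, all 13 libraries, and fits without single libraries or without CON 1 and CON 2. Some genes that the rule takes are counted but not reported by name here.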

Additional observations from a re-analysis of the deposited data

Results flagged for a closer look

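Among the members given here, 3 of 114 groups of 5 libraries held a library far from the others, where chance gives about 1 in 20. Slc11a1 had 184 CPM in CON 4, below the other CON libraries at 216 to 229 CPM. Slc16a6 had 82.9 CPM in CON 1, below the other CON libraries at 107 to 117 CPM. Slc27a1, a fatty acid importer, had 43.8 CPM in MIA 3, below the other MIA libraries at 61.7 to 65.9 CPM.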

How the results depend on the processing

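Of the 31 called members, 12 kept their call in each of the 18 other fits that tested them (Slc44a5 did not pass the strict filter): Slc7a7, Slc11a1, Slc12a9, Slc16a4, Slc25a24, Slc29a3, Slc2a5, Slc37a2, Slc38a2, Slc38a7, Slc39a10 and Slc44a5. Over 553 pairs of member and fit, 91 calls were lost and 0 changed direction. With all 13 libraries 5 members were higher and 7 lower, and 659 genes were called in all. DESeq2 called 18 members higher and 26 lower, with 13 members left without an adjusted p. Scaling to total counts, which moved the median of all genes to 0.05, called 18 higher and 13 lower members. Fits without 1 library gave 11 to 22 higher members, 10 to 20 lower members and 1037 to 2263 genes. Calls lost with no filter included Slc25a13 and Slc6a20a, and calls lost with total-count scaling Slc25a13 and Slc9a9. The fewest calls without 1 library came without MIA 5 (11 higher and 10 lower members, 1037 genes) and without MIA 4 (11 and 13, 1057 genes), and the most without CON 1 (22 and 20, 2263 genes). A replicate block gave 19 higher and 14 lower members and 1524 genes, sharing 15 and 13 with the main calls. Deviations of same-numbered libraries from their group means had correlations of 0.058 to 0.302, and 1 of 5 CON libraries correlated best with its own number. The sources used here do not say whether libraries of the same number were paired, and these values cannot settle it. The causes were not tested. Members under 10 CPM, 94 of 233, hold 4 higher and 1 lower call, and their low counts limit the precision there.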

Other observations

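The 3 libraries whose titles mark them as excluded were scaled with the other 10 and given no test. MIA 6 lay on the MIA side of the CON median for 15 of 15 higher and 15 of 16 lower members, and MIA 7 for 13 of 15 and 15 of 16. CON 6 also lay on that side, for 14 of 15 higher and 16 of 16 lower members. Set against CON 6 itself, MIA 6 lay on the called side for 4 of 15 higher and 5 of 16 lower members. MIA 7 did so for 6 of 15 and 5 of 16. Slc16a4 had 17.7 CPM in MIA 6 and 22 CPM in MIA 7, against 19.1 CPM in CON 6. Slc38a2 had 359 and 439 CPM in MIA 6 and MIA 7, against 437 CPM in CON 6. Slc11a1 had 184 and 188 CPM in MIA 6 and MIA 7, against 180 CPM in CON 6.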
